A study of Mus musculus with 24 samples.

Results

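10 genes of the calcium/calmodulin-dependent kinase family were followed by symbol through both count tables: Camk2a, Camk2b, Camk2d and Camk2g (the subunits of CaMKII), Camk4, Camk1d, Camk1g, Camkk1, Camkk2 and Camkv. All 10 were found among the 55254 genes listed, and all 10 passed the filter on low counts in every fit. The libraries hold nuclear RNA of hippocampal nuclei from male C57BL/6N mice aged 6 months, sorted with an antibody to NeuN (the product of Rbfox3) into a NeuN+ (neuronal) and a NeuN- (non-neuronal) fraction. The 4 genotypes were WT, Mutyh-/-, Ogg1-/- and DKO, the last from crosses of both single knockouts, with 3 libraries for each genotype and fraction and thus 24 in all. The question put to these libraries was whether loss of the DNA glycosylases Ogg1 and Mutyh, which act on oxidized guanine and on adenine paired with it, alters RNA levels in either fraction. The knockouts were in the whole animal and not limited to a cell type, nuclei of several animals were pooled, and the sources used here do not say which libraries came from separate pools, so p-values measure only the spread between these libraries.

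CaMKII is a ring of subunits that binds calmodulin when calcium enters the cell, phosphorylates itself and then stays active for a while after calcium has fallen. Its alpha and beta subunits are very abundant at excitatory synapses of the hippocampus, where the kinase is needed for long-term potentiation and for spatial memory, while the gamma and delta subunits are used in many tissues. Camkk1 and Camkk2 are the upstream kinases that phosphorylate CaMKI (Camk1d and Camk1g encode members) and CaMKIV (Camk4), a nuclear kinase that acts on the transcription factor CREB. Camkv is a kinase-like protein of synapses that lacks kinase activity.

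All 10 are protein-coding genes of the GRCm38 assembly. Of the CaMKII genes, Camk2a lies at chr18:60925618-60988152 and Camk2d at chr3:126596302-126846326 on the plus strand, and Camk2b at chr11:5969644-6066362 and Camk2g at chr14:20734875-20794088 on the minus strand. Camk4 lies at chr18:32934931-33191228 on the plus strand and shares 72 exonic bases with the antisense gene 2310026I22Rik. Camk1d (chr2:5293457-5714515) and Camk1g (chr1:193346346-193370298) lie on the minus strand. The upstream kinase genes are Camkk1 (chr11:73019008-73042073, plus strand) and Camkk2 (chr5:122731170-122779409, minus strand), and Camkv lies at chr9:107935674-107949691 on the plus strand.

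Library totals ran from 56563586 to 96192142 counts. The members had between 183 counts (the lowest library for Camk1g) and 108790 counts (the highest for Camk2a). The sort was visible in the markers: the summed level of Rbfox3, Snap25, Syt1 and Map2 was 4368 to 5160 CPM (read counts scaled to library size) in the NeuN+ libraries and 563 to 697 CPM in the NeuN- libraries, and that of 5 oligodendrocyte genes was 107 to 128 CPM against 4913 to 7370 CPM. Mutyh RNA was not lost in the libraries labelled Mutyh-/- and DKO. It was 10.1 ± 0.915 CPM (SD, n = 3) in Mutyh-/- and 1.14 ± 0.0738 CPM in WT NeuN+ nuclei, while Ogg1 was 3.15 ± 0.197 CPM in Ogg1-/- and 3.04 ± 0.477 CPM in WT. What a count of these genes covers relative to the deleted part was not given in the sources used here, so the labels of the Ogg1-/- libraries could not be checked from RNA, and the genotype names used here are those of the labels.

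Among WT libraries, 8 of the 10 members were called higher in NeuN+ than in NeuN- nuclei, with a Benjamini-Hochberg adjusted p below 0.05 over 33523 genes and more than 1 unit of log2 difference in edgeR's quasi-likelihood test. The same rule called 42.9% of all genes tested in either direction. The largest differences among the members were those of Camkv (log2 difference 3.31, SE 0.072, adjusted p 1.93e-20), Camk2b (3.22, SE 0.073, adjusted p 3.23e-20) and Camk2a (3.12, SE 0.077, adjusted p 1.15e-19), which correspond to 9.93-fold, 9.32-fold and 8.71-fold. Camk1g (2.85), Camk4 (2.78) and Camkk1 (2.70) followed. Camk1d (1.36) and Camkk2 (1.24) differed least of the 8. The upstream kinase Camkk1 was thus further apart between the fractions than Camkk2.

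Camk2d and Camk2g lay on the other side. Camk2d was lower in NeuN+ nuclei by a log2 difference of -0.88 (SE 0.125, adjusted p 1.52e-06) and Camk2g by -0.42 (SE 0.086, adjusted p 0.000141), both past the adjusted p but short of the limit on the difference. Sequencing lanes differed between the fractions, so lane and fraction cannot be told apart in these values.

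In WT NeuN+ nuclei the 3 libraries had 1031, 1068 and 1178 CPM of Camk2a, and in WT NeuN- nuclei 139, 149 and 158 CPM. For Camk2b the values were 717, 738.5 and 797 CPM against 91.4, 91.9 and 103 CPM. For Camk2g the order was turned, with 108, 118 and 99.8 CPM in NeuN+ and 175, 168 and 175 CPM in NeuN- nuclei. No NeuN+ library of any genotype overlapped a NeuN- library for these genes, as the plot of levels by library shows. CPM was scaled separately within each fraction here, whereas the test above scaled all 24 libraries together.

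**Figure D1:**
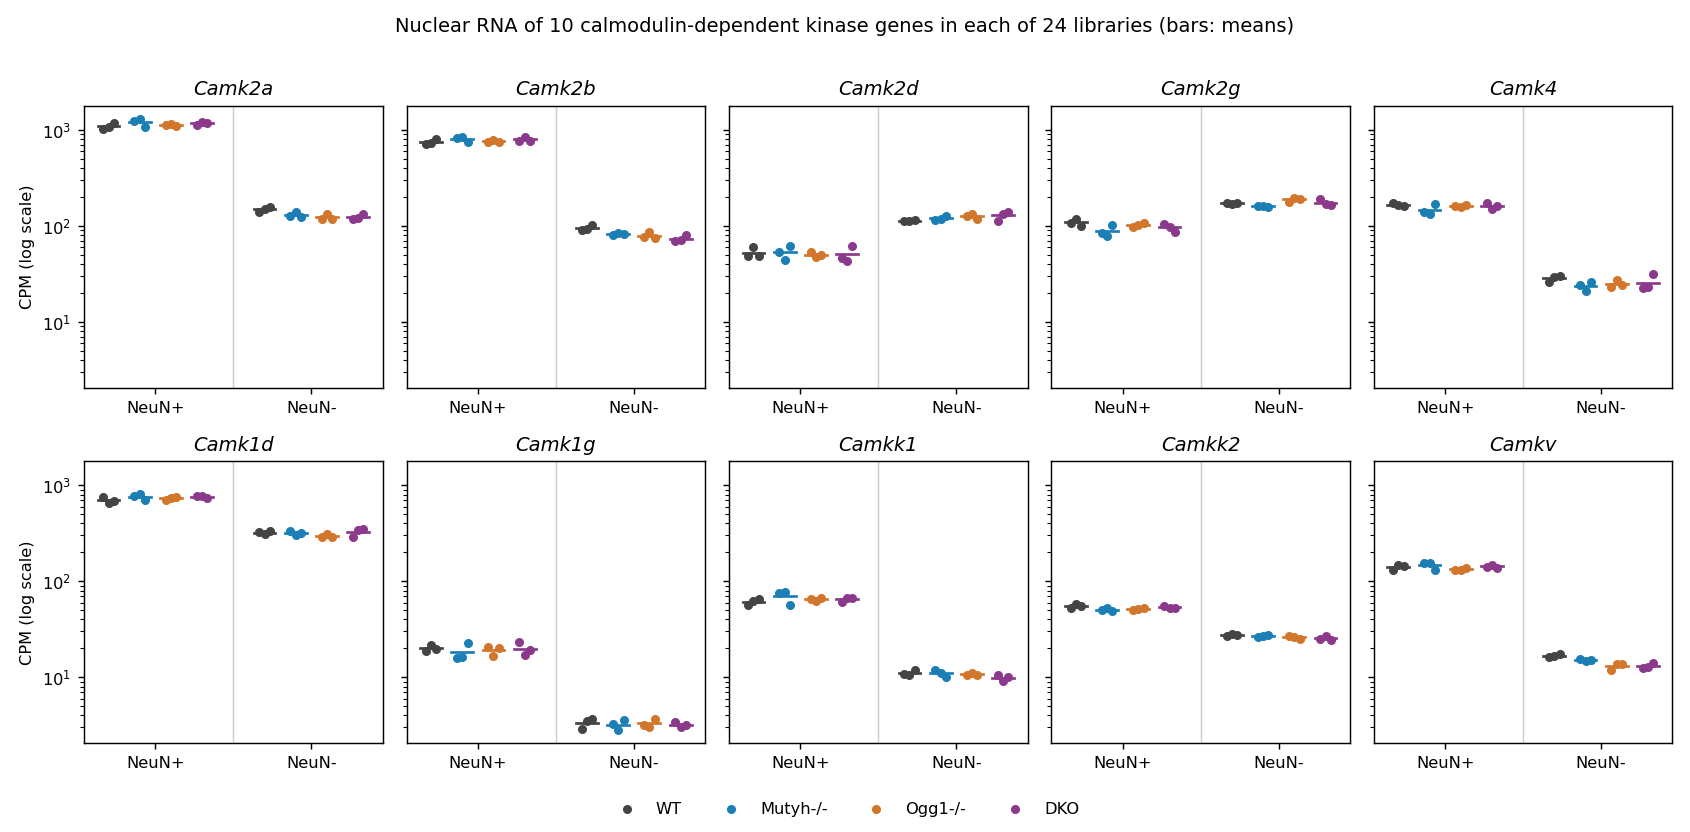
Level of each member in each of the 24 libraries, in CPM on a log scale, with the 4 genotypes of each fraction side by side and a bar at each mean of 3 libraries. Camk2a reaches 1031 to 1304 CPM in NeuN+ libraries, and Camk2d and Camk2g are the only panels in which the NeuN- points lie above the NeuN+ points.

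Because genes differ in length, levels were compared between members per kilobase (kb), once by exonic length and once by the whole span of the gene, since nuclear RNA holds introns and the sources used here do not say which were counted. In WT NeuN+ nuclei, Camk2a led on both scales, with 146 ± 10.3 CPM per exonic kb (SD, n = 3) and 17.5 ± 1.22 CPM per kb of span. By exonic length Camk1d (94.2 ± 6.604), Camk2b (82.3 ± 4.53), Camk4 (51.0 ± 1.46) and Camkv (37.4 ± 2.34 CPM per exonic kb) came next, and no 2 neighbours among these 5 overlapped between libraries. Camk2g (16.98 ± 1.47) and Camkk1 (16.4 ± 1.23) did overlap. Camk1g (7.32 ± 0.546), Camkk2 (5.05 ± 0.218) and Camk2d (2.32 ± 0.295 CPM per exonic kb) were lowest.

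By span the order of several members changed. Camkv, a gene of 14.0 kb, was the second of the 10 in WT NeuN+ nuclei with 10.04 ± 0.629 CPM per kb of span, and Camk1d, which spans 421 kb, was the sixth with 1.66 ± 0.116. Camk4, which spans 256 kb, was the ninth with 0.648 ± 0.0185 CPM per kb of span. In NeuN- nuclei the leading member was Camk1d by exonic length (43.4 ± 1.54 CPM per exonic kb in WT) and Camk2g by span (2.91 ± 0.0675 CPM per kb of span in WT). Camk2a ranked 3 of 10 by exonic length in those nuclei, with 19.9 ± 1.25 CPM per exonic kb.

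The make-up of the nuclear RNA of the CaMKII subunit genes differed between the fractions accordingly. Of the summed level of the 4 subunit genes per exonic kb in WT NeuN+ nuclei, Camk2a made up 59.0% ± 0.904 (SD, n = 3), Camk2b 33.2% ± 0.166, Camk2g 6.87% ± 0.842 and Camk2d 0.938% ± 0.135. In WT NeuN- nuclei Camk2g was the largest part with 43.3% ± 1.40, before Camk2a with 31.9% ± 1.15, Camk2b with 16.7% ± 0.523 and Camk2d with 8.10% ± 0.140. By span the same 2 genes led, Camk2a with 64.0% ± 0.913 in NeuN+ and Camk2g with 43.3% ± 1.44 in NeuN- nuclei. The ratio of Camk2a to Camk2b CPM was close in both fractions, 1.44 to 1.54 over the 12 NeuN+ libraries and 1.47 to 1.71 over the 12 NeuN- libraries. In NeuN- nuclei the ratio was 1.52, 1.62 and 1.54 in WT and higher in DKO, at 1.70, 1.71 and 1.66. Mutyh-/- and Ogg1-/- overlapped WT, and the ratio was not tested. The NeuN- libraries also held RNA of the neuronal markers, at 563 to 697 CPM. The part of remaining neuronal RNA in the NeuN- shares of Camk2a and Camk2b was not tested.

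**Figure D2:**
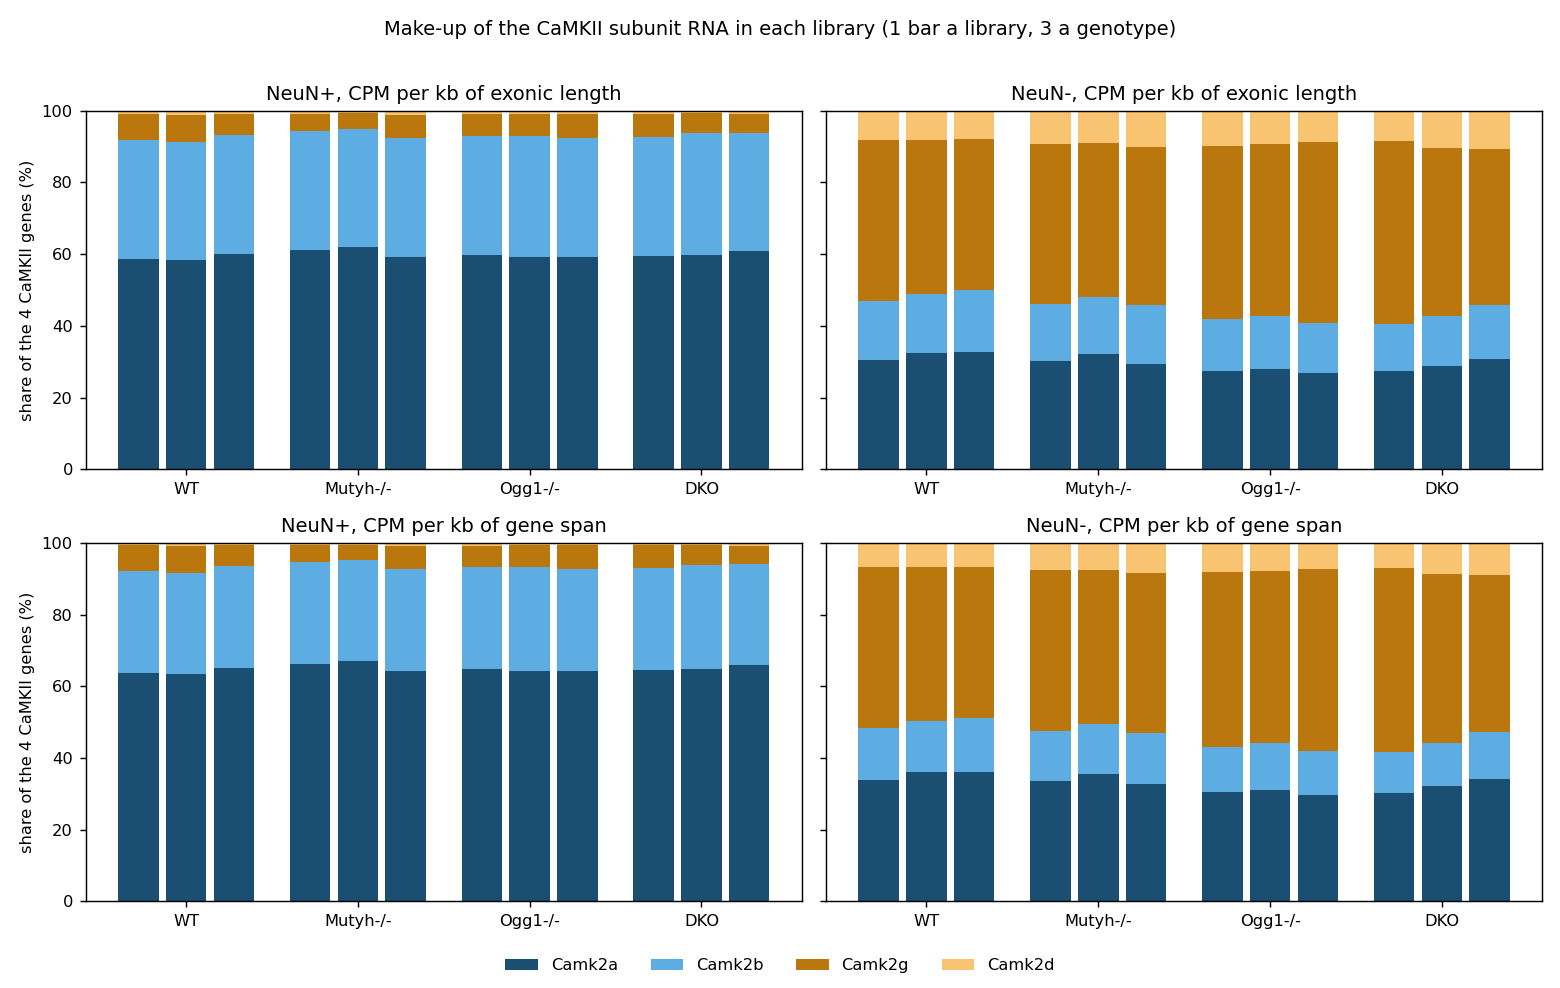
Share of each CaMKII subunit gene in the summed level of the 4 genes, in percent, 1 bar a library, computed per kb of exonic length (top) and per kb of gene span (bottom). Camk2a takes 58.4% to 62.0% of every NeuN+ bar by exonic length, and Camk2g takes 42.1% to 50.9% of every NeuN- bar.

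The NeuN- shares varied with genotype in the libraries. Camk2g made up 44.8%, 42.8% and 42.1% of the summed level in WT, 44.7%, 43.0% and 44.2% in Mutyh-/-, 48.4%, 47.9% and 50.5% in Ogg1-/- and 50.9%, 46.8% and 43.5% in DKO, per exonic kb. The 3 Ogg1-/- libraries were above all WT libraries, and DKO overlapped WT. These shares are descriptions without a test, and the levels behind them are given with their tests further on.

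The start regions of 3 members are shown because they stand for the opposite ends of the fraction difference: Camk2b and Camkv, which were furthest on the NeuN+ side, and Camk2d, which was furthest on the NeuN- side. Each sequence is 300 bases of the RefSeq promoter table (GRCm38.p6), from 250 bases before to 50 after 1 listed start, in the direction of the gene. Capitals mark the GC box, GGGCGG, on either strand.
Camk2b (chr11:6065699-6065998, minus strand): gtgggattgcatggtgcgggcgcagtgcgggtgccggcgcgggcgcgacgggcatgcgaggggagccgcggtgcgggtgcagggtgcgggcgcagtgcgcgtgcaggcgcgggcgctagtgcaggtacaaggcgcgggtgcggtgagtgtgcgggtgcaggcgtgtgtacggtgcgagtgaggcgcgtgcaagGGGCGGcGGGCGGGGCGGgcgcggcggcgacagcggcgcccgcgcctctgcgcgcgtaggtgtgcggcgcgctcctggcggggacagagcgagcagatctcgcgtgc
Camkv (chr9:107935670-107935969, plus strand): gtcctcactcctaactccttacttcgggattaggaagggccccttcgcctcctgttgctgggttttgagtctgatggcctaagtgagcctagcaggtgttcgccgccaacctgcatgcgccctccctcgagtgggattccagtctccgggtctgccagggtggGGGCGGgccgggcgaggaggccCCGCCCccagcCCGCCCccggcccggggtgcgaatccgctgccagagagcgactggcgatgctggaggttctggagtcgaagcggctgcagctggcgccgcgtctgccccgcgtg
Camk2d (chr3:126596701-126597000, plus strand): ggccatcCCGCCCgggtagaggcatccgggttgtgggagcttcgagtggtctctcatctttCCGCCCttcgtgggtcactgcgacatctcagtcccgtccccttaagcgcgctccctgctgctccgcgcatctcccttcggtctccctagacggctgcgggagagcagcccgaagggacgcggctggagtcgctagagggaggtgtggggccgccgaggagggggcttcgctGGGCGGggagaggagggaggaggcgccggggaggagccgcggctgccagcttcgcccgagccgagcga
Each of the 3 held 3 GC boxes, of which a pair overlap in Camk2b. A GC box was present in 35.7% of 32851 promoters of this length in the table. The GC content was 77.3% in Camk2b, 68.3% in Camkv and 70.3% in Camk2d, against a median of 52.7% over all promoters. None of the 3 held the letters of a full cAMP response element (TGACGTCA, in 1.79% of promoters), its half-site (TGACG, 20.8%), a TATA box (TATAAA, 13.6%) or CCAAT (37.4%) on either strand of this window.

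None of the 10 members was called in any knockout against WT in either fraction, where a call needed both an adjusted p below 0.05 and a log2 difference of more than 0.5 either way. For Mutyh-/-, Ogg1-/- and DKO in turn, this rule called 0.428%, 0.574% and 0.302% of 30132 genes in NeuN+ nuclei and 0.273%, 0.229% and 0.116% of 31863 genes in NeuN- nuclei. The adjusted p alone was passed by no member either. DESeq2's Wald test likewise called 0 members in the 6 comparisons by both limits. Its adjusted p alone was passed by 1 member in NeuN+ Mutyh-/- and by 2 members each in NeuN- Ogg1-/- and NeuN- DKO. These are named with their values where those genes are described. The share of all genes past DESeq2's adjusted p alone was not computed, so these counts have no background beside them. By both limits, DESeq2 called 388 genes in NeuN+ Mutyh-/- and edgeR 129. At an unadjusted p under 0.05, edgeR found 4 members in Mutyh-/-, 0 in Ogg1-/- and 0 in DKO among NeuN+ libraries (18.7%, 12.3% and 13.5% of all genes), and 4, 4 and 5 members among NeuN- libraries (13.7%, 11.8% and 12.4% of all genes). The median log2 difference of the members was 0.045, -0.050 and -0.0019 in NeuN+ and -0.081, -0.097 and -0.14 in NeuN- nuclei, in the same order, and the median of all genes tested stayed between -0.0086 and 0.0086.

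**Figure D3:**
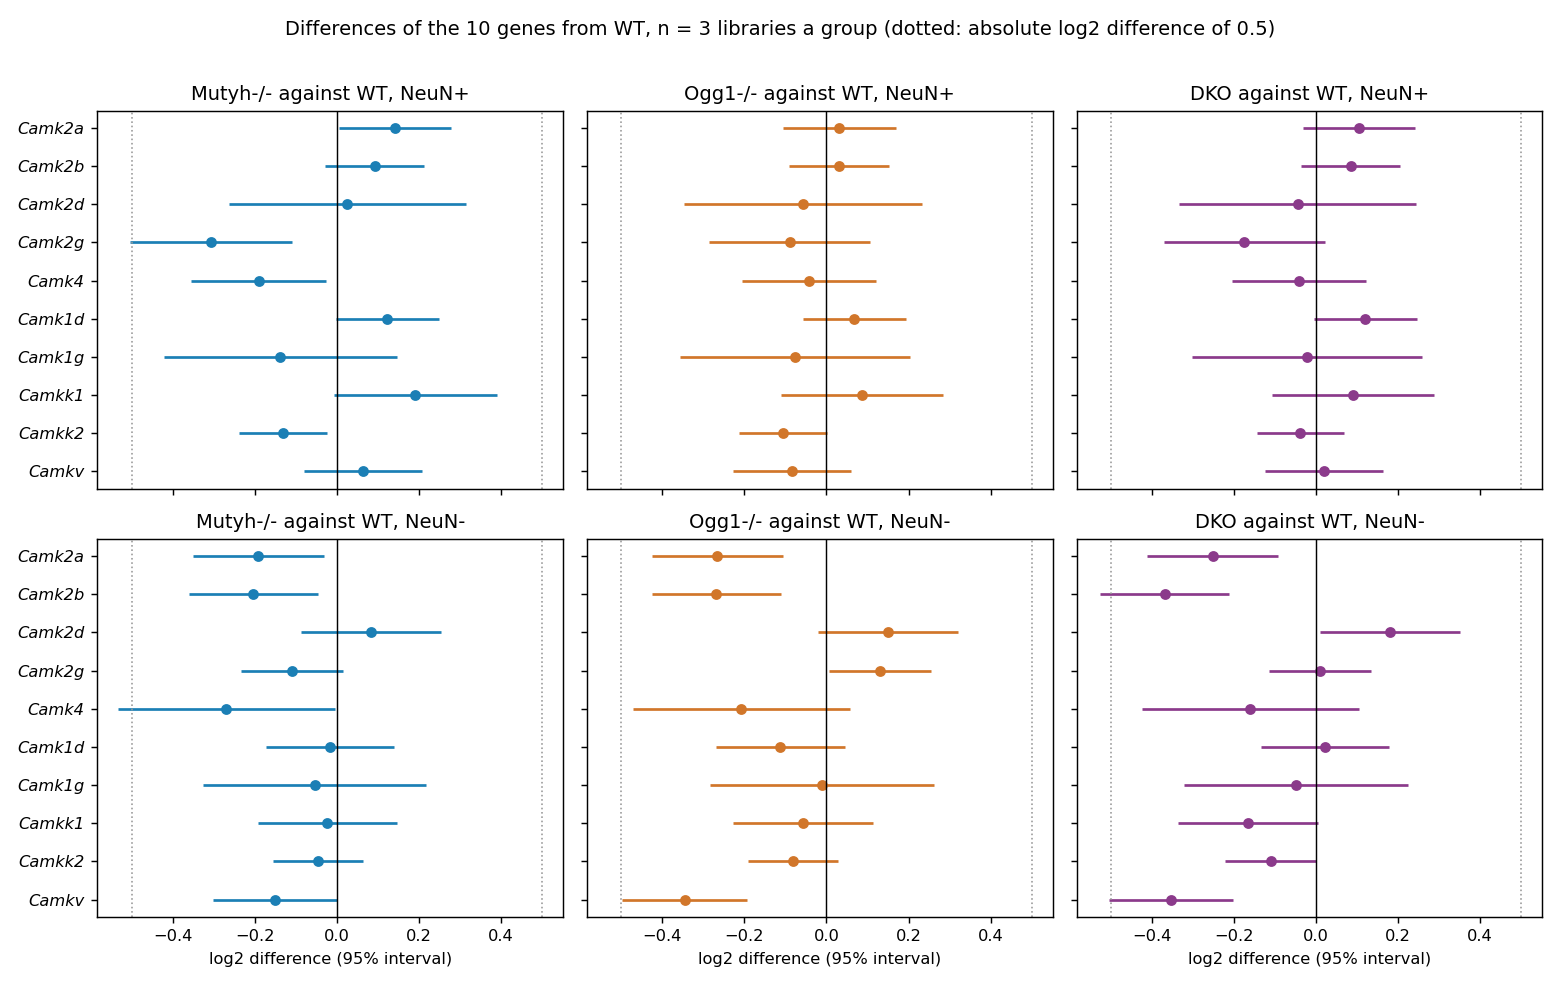
Log2 difference of each member from WT with its 95% interval, for the 3 genotypes in NeuN+ (top) and NeuN- nuclei (bottom), 3 libraries a group, with dotted lines at an absolute difference of 0.5. The points of Camk2a, Camk2b and Camkv lie left of 0 in all 3 lower panels, at -0.15 to -0.37, and at -0.085 to 0.14 in the upper panels. Those of Camk4, Camk1g, Camkk1 and Camkk2 lie left of 0 in all 3 lower panels too.

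In NeuN+ nuclei of Ogg1-/- and DKO mice the members were close to WT. Camk2a was at 1117, 1140 and 1094 CPM in Ogg1-/- and at 1134, 1210 and 1180 CPM in DKO, with log2 differences from WT of 0.032 (95% interval -0.11 to 0.17) and 0.10 (-0.032 to 0.24). Camk2b differed by 0.030 (-0.091 to 0.15) and 0.084 (-0.037 to 0.20). Over the 10 members in both genotypes, the differences ran from -0.17 (Camk2g in DKO, interval -0.37 to 0.022) to 0.12 (Camk1d in DKO, interval -0.0058 to 0.25). The widest intervals were those of Camk2d and Camk1g. The furthest bounds over both genotypes were -0.37 (Camk2g in DKO) and 0.29 (Camkk1 in DKO), so a difference of 0.5 lay outside the interval of every member, while smaller differences lay within them.

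In Mutyh-/- NeuN+ nuclei, Camk2g had 83.4, 78.3 and 101.7 CPM against 108, 118 and 99.8 CPM in WT, a log2 difference of -0.31 (SE 0.092, interval -0.50 to -0.11, edgeR adjusted p 0.11). DESeq2 gave Camk2g -0.30 with an adjusted p of 0.0382, and 3 of 13 alternatives, DESeq2 included, gave Camk2g an adjusted p below 0.05. Camk4 had 138, 132 and 167 CPM against 172, 165 and 163 CPM, a difference of -0.19 (interval -0.35 to -0.026, adjusted p 0.204). Replicate 3 was in both cases the library within the WT range.

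The same library stood apart in the genes that were higher. Camk2a had 1231, 1304 and 1080 CPM in Mutyh-/- (log2 difference 0.14, interval 0.0043 to 0.28, adjusted p 0.254), and the upstream kinase gene Camkk1 had 75.4, 77.1 and 57.2 CPM against 56.3, 62.0 and 65.3 CPM in WT (0.19, interval -0.0070 to 0.39, adjusted p 0.285). Among the 12 NeuN+ libraries, Mutyh-/- replicates 1 and 2 held the 2 highest levels of Camk2a, Camkk1 and Camkv and the 2 lowest of Camk2g, Camk4 and Camk1g. Without replicate 3, edgeR's adjusted p alone was passed by 4 members, Camk2a (0.21, adjusted p 0.0364), Camkk1 (0.32, 0.0163), Camk2g (-0.43, 0.0104) and Camk4 (-0.30, 0.0135). None of them was past the limit of 0.5. The share of all genes past the adjusted p alone was not computed for this setting. By both limits, the number of genes called among all tested went from 129 to 837. Marker lists moved with this library too. The 4 neuronal markers summed to 5028, 5160 and 4750 CPM in Mutyh-/- replicates 1, 2 and 3, all above the 4368 to 4681 CPM of WT. The 2 dentate granule cell genes (Prox1 and Dsp) summed to 152, 156 and 109 CPM in the same order and to 122 to 146 CPM in WT, and the 2 CA1 genes (Wfs1 and Man1a) to 173, 178 and 213 CPM against 180 to 205 CPM in WT. Prox1 and Dsp summed to 143 to 160 CPM in WT NeuN- nuclei too, so this pair was not specific to neuronal nuclei. The 6 interneuron genes summed to 119, 128 and 93.4 CPM against 139 to 150 CPM in WT. Their part in the members' values was not tested.

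Camkk2 was the only member whose NeuN+ groups did not overlap WT. It had 49.6, 52.4 and 49.1 CPM in Mutyh-/-, 50.1, 50.8 and 52.7 CPM in Ogg1-/- and 52.8, 57.6 and 55.0 CPM in WT, with differences of -0.13 (interval -0.24 to -0.023, adjusted p 0.184) and -0.11 (-0.21 to 0.00017, adjusted p 0.406). Groups that do not overlap were found for 21.1% and 19.3% of all genes in these comparisons. The DKO value was -0.038 (-0.15 to 0.068), and 0 members were apart from WT in DKO (16.8% of all genes).

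In NeuN- nuclei, Camk2a, Camk2b and Camkv were lower than WT in all 3 genotypes, though none passed the adjusted p. Camk4, Camk1g, Camkk1 and Camkk2, described further on, were below WT in all 3 genotypes too. All 3 genotypes were compared with the same 3 WT libraries, so their differences are not independent of each other. Camkv had 16.2, 16.6 and 17.5 CPM in WT, 15.5, 14.7 and 15.1 CPM in Mutyh-/-, 11.9, 13.9 and 13.8 CPM in Ogg1-/- and 12.4, 12.9 and 14.0 CPM in DKO. Every knockout library was below every WT library. The log2 differences were -0.15 (interval -0.30 to -0.00015, adjusted p 0.365), -0.35 (-0.50 to -0.19, adjusted p 0.0687) and -0.35 (-0.50 to -0.20, adjusted p 0.0776) by edgeR.

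For Camk2b the NeuN- values were 91.4, 91.9 and 103 CPM in WT, 80.8, 84.4 and 83.2 CPM in Mutyh-/-, 75.9, 86.4 and 75.1 CPM in Ogg1-/- and 69.6, 71.0 and 80.7 CPM in DKO. Here too no knockout library reached a WT library. The log2 differences were -0.20 (interval -0.36 to -0.046, adjusted p 0.26), -0.27 (-0.43 to -0.11, adjusted p 0.179) and -0.37 (-0.53 to -0.21, adjusted p 0.0776). DESeq2's adjusted p was passed by Camk2b in Ogg1-/- (0.0429) and DKO (0.00133) and by Camkv in Ogg1-/- (0.00267) and DKO (0.00228), at differences of the same size and short of the limit of 0.5. Without DKO replicate 3, the highest of its group for both genes, edgeR gave Camk2b in DKO -0.44 with an adjusted p of 0.0294. Of 13 alternatives, DESeq2 included, Camk2b had an adjusted p below 0.05 in 1 for Ogg1-/- and 4 for DKO. Camkv had it in 2 of 13 for each of these genotypes.

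Camk2a had 139, 149 and 158 CPM in WT, 127, 141 and 122 CPM in Mutyh-/-, 118, 134 and 118 CPM in Ogg1-/- and 118, 122 and 134 CPM in DKO. Mutyh-/- replicate 2 overlapped WT, and the other 2 genotypes did not. The differences were -0.19 (interval -0.35 to -0.031, adjusted p 0.286), -0.27 (-0.43 to -0.11, adjusted p 0.187) and -0.25 (-0.41 to -0.092, adjusted p 0.23). Lower groups that do not overlap WT were found for 10.2%, 10.7% and 9.15% of all genes in NeuN- Mutyh-/-, Ogg1-/- and DKO.

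Several marker lists differed between the NeuN- groups beside these 3 genes, in both directions. Rbfox3, whose product was the sorting marker, was at 98.3 ± 9.76 CPM in WT, 87.3 ± 7.59 in Mutyh-/-, 79.4 ± 11.7 in Ogg1-/- and 73.2 ± 14.7 CPM in DKO (SD, n = 3). The 4 neuronal markers summed to 622 to 697 CPM in WT and 563 to 638 CPM in DKO, and 2 genes of excitatory neurons (Slc17a7 and Neurod6) to between 21.6 and 25.3 CPM in WT, 17.7 and 22.5 CPM in Mutyh-/-, 18.2 and 20.7 CPM in Ogg1-/-, and 16.9 and 17.9 CPM in DKO, with the Ogg1-/- and DKO libraries below all WT libraries and Mutyh-/- overlapping them. Set against these 2 genes, Camk2b was at 371 to 423 CPM per 100 marker CPM in WT and 390 to 478 in DKO, and Camkv at 67.2 to 75.0 and 69.7 to 83.1, so that the groups overlapped, whereas Camk2a was higher in DKO without overlap, at 601 to 643 in WT and 663 to 793 in DKO. Set against the neuronal list, Camk2a was at 21.7 to 22.6 CPM per 100 marker CPM in WT and 21.0 to 21.2 in DKO, Camk2b at 13.4 to 14.7 and 12.4 to 12.6, and Camkv at 2.42 to 2.61 and 2.20 to 2.25, without overlap. On this scale Ogg1-/- was also below WT without overlap for these 3 genes, and Mutyh-/- overlapped WT. Against the 2 excitatory genes, both single knockouts overlapped WT for these 3 genes. The share of all genes without overlap on these scales was not computed. Wfs1 and Man1a, the 2 genes listed for CA1, were higher in DKO, at 81.8 to 87.3 CPM in WT and 90.8 to 100.5 CPM in DKO. They summed to 180 to 205 CPM in WT NeuN+ nuclei, a smaller gap between the fractions than that of the neuronal markers. In NeuN- nuclei they may therefore not stand for CA1 neurons. The 5 oligodendrocyte genes were lower, at 6491 to 7239 CPM in WT, 5510 to 6127 CPM in Ogg1-/- and 4913 to 6067 CPM in DKO. In bulk libraries such as these, fewer nuclei of a type and less RNA per nucleus cannot be told apart, and the part of these cell types in the members' values was not tested.

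**Figure D4:**
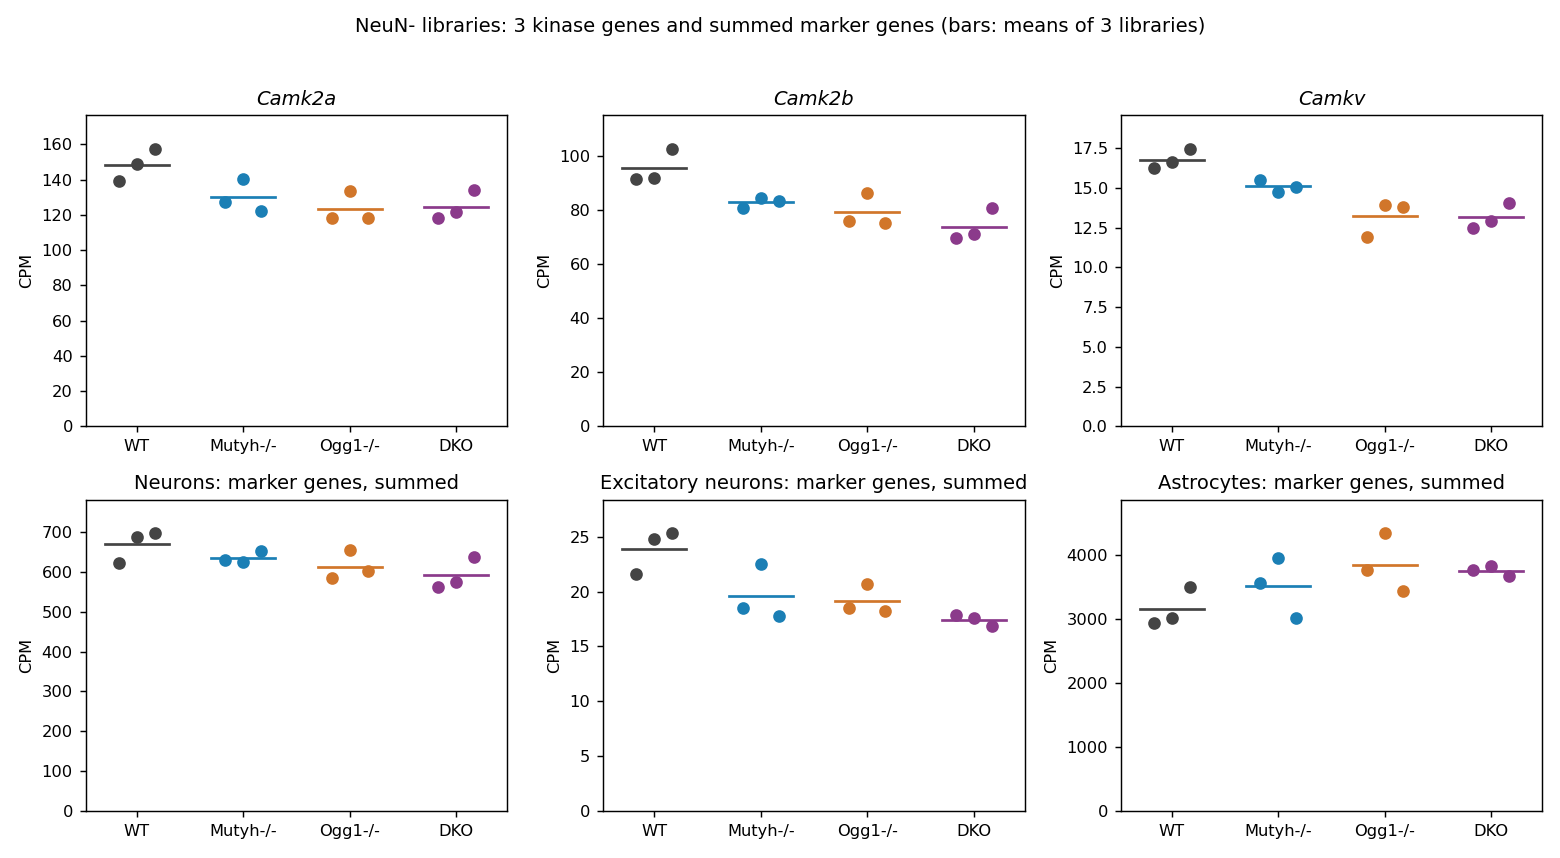
Levels in the 12 NeuN- libraries by genotype, in CPM from 0, of Camk2a, Camk2b and Camkv (top) and of the summed neuronal, excitatory neuron and astrocyte markers (bottom), with bars at the means of 3 libraries. The WT points lie above every DKO point for Camk2a, Camk2b and Camkv and for the excitatory markers, while the astrocyte sum runs from 2938 to 3496 CPM in WT and from 3660 to 3824 CPM in DKO.

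The subunit genes Camk2d and Camk2g, which were higher in NeuN- than in NeuN+ nuclei, did not share this direction in all genotypes. Camk2d had 112, 113 and 116 CPM in WT, 116, 118 and 127 CPM in Mutyh-/-, 128, 134 and 117 CPM in Ogg1-/- and 112, 133 and 141 CPM in DKO, with differences of 0.084, 0.15 and 0.18 (in DKO interval 0.0086 to 0.35, adjusted p 0.382). DKO replicate 1 (111.6 CPM) was just below the lowest WT library (111.8 CPM), and the other 2 DKO libraries were above the WT range. Camk2g had 175, 168 and 175 CPM in WT and 179, 196 and 192 CPM in Ogg1-/-, a difference of 0.13 (interval 0.0065 to 0.26, adjusted p 0.396), but 161, 161 and 158 CPM in Mutyh-/- (-0.11, interval -0.23 to 0.016). Between Ogg1-/- and Mutyh-/- NeuN- libraries Camk2g differed by 0.24 (interval 0.11 to 0.36, adjusted p 0.0924), with the groups apart, as were 8.05% of all genes in this direction.

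The other members in NeuN- nuclei showed smaller or less even values, though some groups lay below WT without overlap. These were Camk4 in Mutyh-/-, Camkk2 in Ogg1-/- and DKO, and Camkk1 in DKO. Over all 10 members, 4, 4 and 5 were lower without overlap in Mutyh-/-, Ogg1-/- and DKO, against 10.2%, 10.7% and 9.15% of all genes. Camk4, the nuclear kinase gene, had 26.3, 29.4 and 30.2 CPM in WT and 24.1, 21.0 and 26.2 CPM in Mutyh-/- (-0.27, interval -0.53 to -0.0055, adjusted p 0.354). Its differences in Ogg1-/- and DKO were -0.21 (interval -0.47 to 0.057) and -0.16 (-0.42 to 0.10). The DKO libraries of Camk4 at 22.8, 23.0 and 31.2 CPM spanned WT. Camk1d, Camk1g, Camkk1 and Camkk2 differed from WT by -0.17 to 0.021 over the 3 genotypes. The most negative of these was Camkk1 in DKO (10.4, 9.18 and 10.1 CPM against 10.8, 10.6 and 12.0 CPM in WT, interval -0.34 to 0.0050, adjusted p 0.418). The most precise was Camkk2, whose intervals reached from -0.22 to 0.065 over the 3 genotypes.

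Between the knockouts, and for a departure of DKO from the sum of the single knockouts, edgeR called 0 members in either fraction, where 0.216% of genes were called in DKO against Ogg1-/-, 0.139% in DKO against Mutyh-/- and 0.485% in Ogg1-/- against Mutyh-/- in NeuN+ nuclei, 0.132%, 0.122% and 0.521% in NeuN- nuclei, and a departure from additivity in 0.159% and 0.122%. DESeq2 called 0 as well, apart from the adjusted p alone for 1 member in NeuN- Ogg1-/- against Mutyh-/-. The share of all genes past DESeq2's adjusted p is not given here. At an unadjusted p under 0.05 the 8 comparisons held 0, 0, 2 and 1 members in NeuN+ and 0, 2, 2 and 0 members in NeuN- nuclei, in the order just given, against 4.26%, 6.86%, 12.7% and 7.95% and 4.34%, 11%, 11.5% and 8% of all genes. The 1 member with such a departure was Camkk2 in NeuN+ nuclei (0.20, interval 0.047 to 0.35, adjusted p 0.58), which was lower in both single knockouts and near WT in DKO. In NeuN- nuclei Camkv was lower in DKO than in Mutyh-/- (-0.20, interval -0.35 to -0.051, adjusted p 0.345) and so was Camk2b (-0.17, interval -0.32 to -0.0085, adjusted p 0.434), with groups that did not overlap, as for 6.58% of all genes in this direction.

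The difference between fractions in the effect of each genotype was tested in 1 fit of all 24 libraries, without pairing them by replicate number. Under edgeR 0 members passed an adjusted p of 0.05 in any genotype, where 0.0209%, 0.0537% and 0.0567% of 33523 genes did for Mutyh-/-, Ogg1-/- and DKO. The nearest was Camk2b in DKO, where the effect was 0.46 more positive in NeuN+ than in NeuN- nuclei (SE 0.095, interval 0.26 to 0.66, adjusted p 0.0861). Camkv (0.38, interval 0.18 to 0.58, adjusted p 0.182) and Camk2a (0.37, interval 0.16 to 0.58, adjusted p 0.24) came next, and these 3 had an unadjusted p under 0.05 in every genotype, together with Camkk1 in DKO, against 8.58%, 7.09% and 9.4% of all genes. This count changed with the settings. DESeq2 passed 3 members for DKO, Camk2b (adjusted p 0.00133), Camkv (0.0168) and Camk2a (0.0379), and among other settings edgeR itself passed Camk2b without a filter on low counts (0.0305), with a likelihood ratio test (0.0103) or without DKO NeuN- replicate 3 (0.0139). With a block for each genotype and replicate number, edgeR passed both Camk2b and Camk2a for DKO. The shares of all genes passing under DESeq2 and these other settings are not given here. Rbfox3 had the same pattern, with an effect of DKO that was 0.64 more positive in NeuN+ nuclei (interval 0.31 to 0.97, adjusted p 0.182).

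Of 28 other genes of the pathway, few passed the adjusted p against WT. In NeuN+ Ogg1-/- nuclei 2 fell and 0 rose, the calmodulin gene Calm2 and the kinase gene Camk1, where 1.1% of all genes passed in either direction. In NeuN+ DKO nuclei 1 fell, Camk1 (0.494% of all genes), and Camk1 was also the 1 gene to fall in NeuN- Ogg1-/- (0.342%) and NeuN- DKO (0.179%). No gene of the list passed in Mutyh-/- of either fraction (0.641% and 0.32%). At edgeR's unadjusted p under 0.05, 10, 12 and 12 of the 28 were found in NeuN+ Mutyh-/-, Ogg1-/- and DKO, of which 4, 10 and 9 were lower, where 18.7%, 12.3% and 13.5% of all genes were found. In NeuN- nuclei 6, 7 and 7 were found, of which 5, 6 and 7 were lower, against 13.7%, 11.8% and 12.4% of all genes. DESeq2 was run for the 2 genes that fell and not summed over the list.

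Calm2 had 210, 213 and 215 CPM in WT and 162, 158 and 139 CPM in Ogg1-/- NeuN+ nuclei, a log2 difference of -0.47 (SE 0.091, adjusted p 0.0234). Every Ogg1-/- library was below every WT library. Calm3, which encodes the same protein, was at -0.48 with an adjusted p of 0.0525, and Camk2n1, an inhibitor of CaMKII, at -0.49 with an adjusted p of 0.0607. In DKO Calm2 and Calm3 were at -0.37 and -0.46 with adjusted p of 0.0907 and 0.0879. Calmodulin genes are near-copies in their coding sequence, so reads may be shared between them. Calm2 no longer passed the adjusted p when any 1 WT library, or Ogg1-/- replicate 2 or 3, was left out, at adjusted p of 0.0606 to 0.141.

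Camk1 was at 10.1, 11.6 and 10.3 CPM in WT, 7.99, 7.10 and 7.98 CPM in Ogg1-/- and 7.64, 6.73 and 7.51 CPM in DKO NeuN+ nuclei (-0.47, adjusted p 0.0101, and -0.55, adjusted p 0.00407). In NeuN- nuclei it had 31.5, 30.3 and 28.1 CPM in WT, 19.4, 20.2 and 20.4 CPM in Ogg1-/- and 21.8, 20.7 and 17.5 CPM in DKO (-0.58, adjusted p 0.00398, and -0.58, adjusted p 0.0082). Camk1 overlaps the end of Ogg1, the gene deleted in both genotypes, on the opposite strand, and the use of strand in counting was not given, so its counts are uncertain. In Ogg1-/- NeuN+ nuclei Camk1 no longer passed the adjusted p without WT replicate 2 (adjusted p 0.0694) or Ogg1-/- replicate 2 (0.0926), and its call in DKO NeuN- nuclei was lost without WT replicate 1 (0.0564) or 2 (0.0601) or with only the 2 genotypes in the fit (0.104). The phosphatase gene Ppp3ca, the catalytic subunit of calcineurin, differed from WT by -0.056 to 0.15 over the 6 comparisons, with adjusted p from 0.204 upwards. Between the fractions, 24 of the 28 genes were higher in WT NeuN+ nuclei at an adjusted p under 0.05 and 4 were lower, among them Camk1 (-1.25), while that limit alone was passed by 72.4% of all genes.

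Among the 9750 genes with a mean of at least 10 CPM, the levels most like those of Camk2a over the 12 NeuN+ libraries included those of Foxk1 and Car4 (Pearson's r 0.972 and 0.971 of log2 CPM). Camk2b was most like Camk2a, Slc29a4 and Slc8a2 (0.953, 0.936 and 0.935), and Camkv most like Gm15492, Madd and Brpf1 (0.966, 0.962 and 0.954). Camk4 was most like Nln, Rapgef5 and Ptprr (0.965, 0.960 and 0.958). For Camk2g the nearest were Zkscan16, Dap and Zfp941 (0.967, 0.966 and 0.957). The nearest genes of the other members were Rasgef1b for Camk2d (0.926), Gm27153 for Camk1d (0.949), Gm3294 for Camk1g (0.896), Pagr1a for Camkk1 (0.946) and Agap2 for Camkk2 (0.895). These are descriptions over libraries that share genotypes, and separate pools were not stated for them. Mutyh-/- replicates 1 and 2 held the 2 highest or the 2 lowest levels of Camk2a, Camkv, Camk4, Camk2g, Camk1g and Camkk1.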

How the data were processed

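RNA of 24 nuclear libraries (3 for each of 4 genotypes and 2 fractions) was read with a stranded total RNA kit. The authors deposited raw read counts per gene. The submitters' processing notes name FastQC 0.11.9, HISAT2 2.1.0, SAMtools 1.10, featureCounts, R 4.3.2 and edgeR 3.42.4. Reads were aligned to GRCm38. The use of strand and the counting of introns were not given in the sources used here. NeuN+ and NeuN- libraries ran on different lanes.

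Groups were taken from the labels. Counts were scaled by TMM, filtered with filterByExpr and tested with edgeR 4.0.16 (limma 3.58.1, R 4.3.3) by the quasi-likelihood test with Benjamini-Hochberg adjustment over all genes tested, once for each fraction with 4 genotypes and once for all 24 libraries. Intervals are 95%. CPM was scaled within each fraction. A knockout call needed an adjusted p below 0.05 with a log2 difference of more than 0.5 either way, a fraction call more than 1, and additivity and differences of effects the adjusted p alone. The scripts were tested on simulated data.

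Alternatives were DESeq2 size factors, no filter, a filter of 10 counts in every library, a likelihood ratio test, the DESeq2 1.42.0 Wald test, a replicate block, only the 2 genotypes compared, and leaving out each library. The same alternatives for Calm2 and Camk1 were added after the data were seen. Named were all 10 members, the targeted genes, Rbfox3, every one of 28 pathway genes past the adjusted p against WT, plus Calm3, Camk2n1 and Ppp3ca, and genes most like a member, for which the rule chose the 3 with the highest correlation and the text names 1 to 3. Some genes of the lists are not reported here and were left out of the pathway counts and the excitatory neuron sum. Members and lists were chosen with earlier results of these data known.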

Additional observations from a re-analysis of the deposited data

How the results depend on the processing

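The count of members called, by the limits of each comparison, stayed the same in 17 of 18 comparisons under every alternative run, 0 for the knockouts and 8 between the fractions. The exception was the difference between fractions in the effect of DKO, where 0 members passed with edgeR's quasi-likelihood test, 1 without a filter on low counts, 1 with a likelihood ratio test, 2 with the replicate block and 3 with DESeq2, and 0 to 1 when 1 library was left out (1 without DKO NeuN- replicate 3). The cause was not tested, and the shares of all genes passing under these alternatives are not given here. Replicate numbers were not taken to pair the samples in the main fit. The paper states that both fractions were collected in the sort, but not that equal numbers mark the same pool. For a check of pairing, each library was taken as its deviation from its group mean, and the fractions were compared only within a genotype. On that scale, equal numbers gave correlations of -0.00752 to 0.347 (mean 0.196), and different numbers a mean of -0.0946. Deviations within a group cancel out, so the negative mean largely follows from the positive one and is no separate evidence of pairing. In each fraction, 10 of 12 libraries correlated best with the library of their own number in the other fraction. The main fit may therefore leave out a pairing, and with the replicate block 2 members passed for the effect of DKO instead of 0. The replicate block changed no other count of members. Over all genes, the count called by both limits in NeuN+ Mutyh-/- was 129, with 837 when Mutyh-/- NeuN+ replicate 3 was left out. It was 272 with only those 2 genotypes, 388 with DESeq2, 564 with the likelihood ratio test and 625 without a filter.

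Differences near 0 changed sign only when 1 library was left out, and none of these was past the adjusted p. In NeuN+ nuclei the log2 difference from WT then ran from -0.11 to 0.15 for Camk2d in Mutyh-/-. In Ogg1-/- it ran from -0.0082 to 0.089 for Camk2a, -0.0020 to 0.075 for Camk2b, -0.11 to 0.052 for Camk2d and -0.13 to 0.012 for Camk1g. In DKO it ran from -0.22 to 0.072 for Camk2d, -0.10 to 0.017 for Camk4, -0.14 to 0.074 for Camk1g, -0.068 to 0.0024 for Camkk2 and -0.033 to 0.055 for Camkv. In NeuN- nuclei it ran from -0.055 to 0.019 for Camk1d, -0.15 to 0.035 for Camk1g and -0.081 to 0.038 for Camkk1 in Mutyh-/-, from -0.11 to 0.068 for Camk1g and -0.084 to 0.0084 for Camkk1 in Ogg1-/-, and from -0.057 to 0.056 for Camk2g, -0.027 to 0.10 for Camk1d and -0.15 to 0.019 for Camk1g in DKO. The difference between fractions in the effect ran from -0.21 to 0.056 for Camk2d, -0.054 to 0.14 for Camk4 and -0.30 to 0.0017 for Camk1g in Mutyh-/-, from -0.13 to 0.043 for Camk1g and -0.052 to 0.013 for Camkk2 in Ogg1-/-, and from -0.086 to 0.13 for Camk1g in DKO.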
